A study of Mus musculus with 4 samples.

Results

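Plasmacytoid dendritic cells are the interferon-producing specialists of the dendritic cell family, and 76 of 32779 single-cell transcriptomes from mouse MC38b tumours were assigned to them. The assignment used transcripts alone. A barcode, the tag that marks 1 droplet, had to hold at least 1000 unique molecular identifiers (UMIs, each standing for 1 captured transcript) and at least 500 genes, with under 10% mitochondrial UMIs. It also had to hold at least 3 UMIs of Siglech, at least 1 UMI of Ccr9, Cox6a2 or Klk1 together, at most 3 UMIs of the 3 C1q genes together, and no UMI of Cd3d, Cd3e or Cd3g. These genes therefore describe the selection and are not results.

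The samples were 4 droplet libraries (10x Genomics) of MC38b tumours grafted into mice, taken 24 h after dose 2. The mice had received saline (PBS, libraries PBS 1 and PBS 2), an antibody to mouse PD-1 (1 library), or antibodies to mouse PD-1 and mouse TL1A (1 library, called the combination). Per the labels, cells of 2 saline animals and of 4 animals of a treated group were pooled before sorting. The labels do not say if the 4 count for each antibody group, and it is unclear if a PBS library holds cells of 1 or of 2 animals; strain, sex and age are not given in the sources used here. Live cells were sorted into a CD45+ CD3+ gate, a CD45+ CD3- gate and a CD45- CD3- gate, and remixed in 9 to 9 to 2 parts before 20000 cells were loaded. The p-values therefore cover only the variation between libraries, part of which may be technical.

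Plasmacytoid dendritic cells develop from dendritic and lymphoid progenitors under the transcription factor TCF4 (E2-2), an E protein that binds CANNTG motifs. They sense viral and self nucleic acids in endosomes through TLR7 and TLR9, and can release large amounts of type I interferon through IRF7. In tumours they are usually rare, and have been described as poor producers of interferon and weak stimulators of T cells. Siglec-H is an inhibitory lectin found on these cells in mice and signals through the adaptor DAP12 (Tyrobp), CCR9 is a gut- and thymus-homing chemokine receptor, and Cox6a2 encodes a respiratory chain subunit.

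The promoters of Siglech, which defined the cells, and of Bst2, which was among the genes higher in them, are shown because both hold the E protein motif CAGGTG, whose reverse complement is CACCTG. They are the bases before the RefSeq start site on GRCm38.p6, on the strand of the gene, with motif matches in capitals.
Siglech, chr7:55767934-55768177, + strand: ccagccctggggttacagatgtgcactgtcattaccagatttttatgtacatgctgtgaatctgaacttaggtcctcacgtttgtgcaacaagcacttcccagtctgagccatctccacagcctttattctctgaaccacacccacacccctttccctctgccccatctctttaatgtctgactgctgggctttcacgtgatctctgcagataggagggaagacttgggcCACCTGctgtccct
Bst2, chr8:71537473-71537722, - strand: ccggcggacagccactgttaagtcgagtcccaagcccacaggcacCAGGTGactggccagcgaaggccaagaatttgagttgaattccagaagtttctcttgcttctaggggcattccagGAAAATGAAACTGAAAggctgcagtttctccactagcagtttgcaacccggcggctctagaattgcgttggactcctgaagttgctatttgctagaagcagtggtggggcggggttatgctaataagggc
In Siglech the motif begins 20 bases before the start, and the 6 bases nearest the start were left out because they lie in an annotated exon. In Bst2 it begins 205 bases before the start, and 2 overlapping matches to GAAA, any 2 bases and GAAA again, the core of interferon-response elements, begin 130 and 124 bases before it. On either strand of the 250 bases before the start, CAGGTG was found in 17.1% of 27025 genes with an entry, in 13.0% of the 2753 of them tested in all comparisons of cell classes, and in 17.0% (27 of 159) of those higher in plasmacytoid dendritic cells in each comparison. The GAAA repeat was found in 3.1%, 3.3% and 3.1% of the same genes. A match is a description of these letters and not a binding site.

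The 4 libraries held 6225, 5535, 10395 and 10624 barcodes past the quality filter (PBS 1, PBS 2, anti-PD-1, combination), with medians between 4598 and 8824 UMIs, lowest in anti-PD-1. Libraries shared barcodes, 673 to 1778 between any pair of PBS 1, PBS 2 and anti-PD-1 and 21 to 39 between each of these and the combination. Of the members, 1, 1, 2 and 1 carried a barcode that also occurred in another library, and none was a member in more than 1 library. The members numbered 18, 10, 26 and 22, and their medians ran from 6379.5 UMIs in anti-PD-1 to 9477.5 in PBS 2. Of the 76, 9 also held many transcripts of another cell type or were far deeper than the rest (at least 20 UMIs of a marker list of natural killer, CD45-negative or macrophage cells, or over 3 times the class median). They are called mixed here, and this choice was made after seeing the data. The lists marked 6, 2 and 3 of the 9. For this cut the macrophage list was counted without Ly6c2, Plac8 and Ccr2. The mixed members held 38.5%, 49.3%, 24.1% and 24.6% of all members' UMIs, in the same order of libraries. The deepest barcodes of PBS 1 and PBS 2, with 82120 and 80927 UMIs, alone held 34.2% and 49.3% of their libraries' sums. Results are therefore given for all 76 members and for the 67 that remain (16, 9, 23 and 19).

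**Figure D1:**
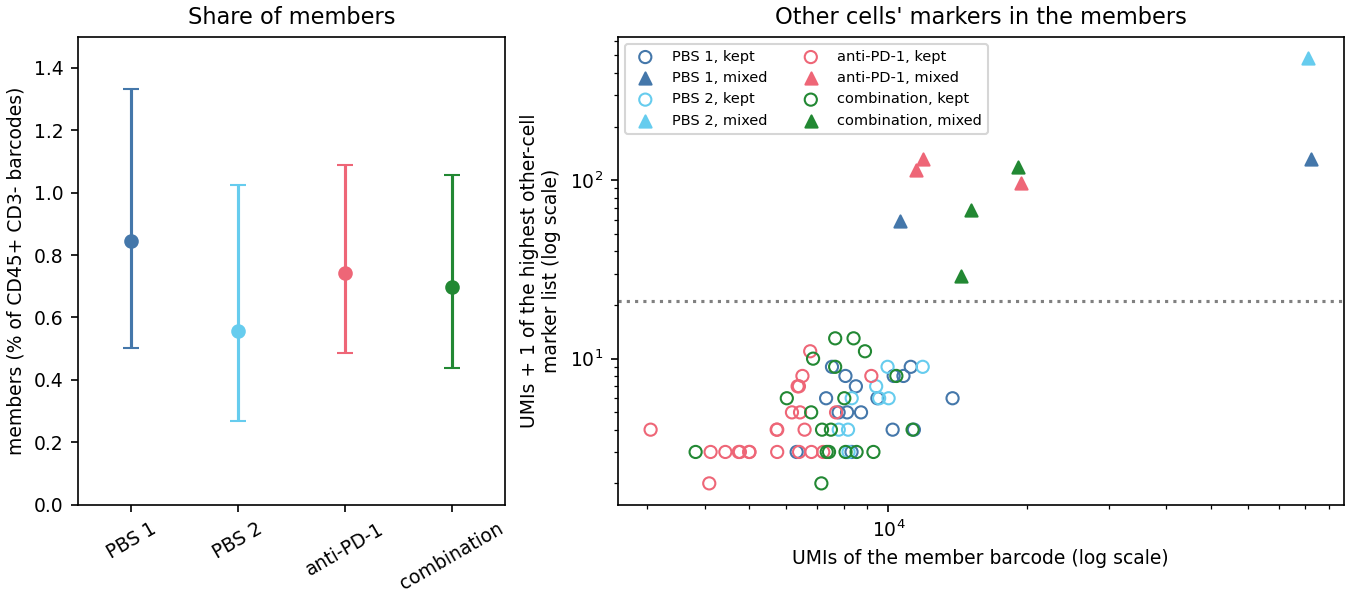
Left, members as a percentage of CD45+ CD3- barcodes (a Ptprc UMI and no CD3 UMI) in each library, with exact 95% intervals. Right, each member's UMIs against the UMIs of its highest marker list of another cell type plus 1, both on log scales. Filled triangles mark the 9 mixed members, and a dotted line marks the threshold of 20 UMIs. The intervals of all 4 libraries overlap, and 2 mixed members stand apart with 82120 and 80927 UMIs.

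Plasmacytoid dendritic cells were rare among the CD45+ CD3- barcodes of every library. These are barcodes past the quality filter with a UMI of Ptprc, the gene of CD45, and none of Cd3d, Cd3e or Cd3g. They were chosen by transcripts from the remixed cells of all gates, so the share is not that of the sorted gate. They were 0.845% (exact Clopper-Pearson 95% interval 0.502 to 1.33, 18 of 2130) in PBS 1 and 0.558% (0.268 to 1.02, 10 of 1793) in PBS 2. The share was 0.743% (0.486 to 1.09, 26 of 3497) in anti-PD-1 and 0.699% (0.439 to 1.06, 22 of 3148) in the combination. Both treated libraries lay between the PBS libraries, but this order depends on depth. Among barcodes with at least 3000 UMIs the shares were 0.920%, 0.605%, 1.03% and 0.791% (PBS 1, PBS 2, anti-PD-1, combination), and with each barcode thinned to 3000 UMIs 0.682%, 0.449%, 0.731% and 0.524%, so anti-PD-1, the shallowest library, was the highest in both. The intervals cover counting error only, and with 1 library per treated group there is no test of the difference. The ratio to the mean of the PBS pair was 1.06 for anti-PD-1 and 0.996 for the combination, and leaving out PBS 1 or PBS 2 moved these to 1.33 or 0.880 and to 1.25 or 0.827.

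Few barcodes lay near the Siglech threshold, which is part of the rule. Others with enough Siglech failed 1 other condition alone (PBS 1, PBS 2, anti-PD-1, combination). Of these, 3, 3, 4 and 6 held a CD3 UMI, and 0, 3, 1 and 3 held no UMI of Ccr9, Cox6a2 or Klk1. In PBS 1, 1 barcode held more than 3 C1q UMIs, and in the combination 1 failed the quality filter. At the threshold, 4 of the barcodes that met every other condition held 1 or 2 UMIs of Siglech (3 with 1 and 1 with 2) and 3 of the members held exactly 3, whereas 17, 9, 20 and 17 members held 7 or more. The barcode with 2 had 39 UMIs of Tcf4 among 9484, and those with 3 had 37, 15 and 27 among 8176, 4093 and 5744, so both sides of the line carried this gene. Among the 67 members, Siglech had a median of 12 UMIs per cell (3 to 49), Ccr9 10 (0 to 42, detected in 66), Cox6a2 5 (0 to 23, in 56) and Klk1 1 (0 to 21, in 37). All 3 of Ccr9, Cox6a2 and Klk1 were detected in 36 members, exactly 2 in 20 and 1 in 11. By library, Cox6a2 was detected in 15 of 16, 8 of 9, 20 of 23 and 13 of 19 members, least often in the combination. Ccr9 was detected in 16, 9, 22 and 19 of them and Klk1 in 10, 4, 11 and 12. Members were thus not alike in these markers across libraries, and the treatment comparisons were not adjusted for it. In the rest of each library Siglech stood between 0.639 and 0.957 counts per 1000000 UMIs of the library or class (CPM).

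Of the markers of plasmacytoid dendritic cells outside the rule, some were found in every cell and others in part of the cells. Tcf4 was found in 67 of 67 members with a median of 37 UMIs (4 to 101), and Bst2 and the transcription factor genes Irf8 and Runx2 were also found in all 67, with medians of 16, 13 and 6. Ly6d, a surface protein of lymphoid progenitors, was found in 54 (median 8) and Ly6c2 in 61 (median 12). Spib, a transcription factor of the lineage, was detected in 43, Klra17 in 44 and Pacsin1 in 50. Tlr7 was detected in 39 and Irf7 in 41, but Tlr9 in only 4, with 3.48 to 5.32 CPM in the compared classes as well.

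Many defining markers of other cells were at 0 in the 67 members, from which barcodes with at least 20 UMIs of the natural killer, CD45-negative or macrophage lists had been removed. Xcr1 and Batf3 of type 1 conventional dendritic cells, Cd79a of B cells, Ncr1 and Eomes of natural killer cells, Csf3r and Cxcr2 of neutrophils and Krt8 and Col1a1 of CD45-negative cells had no UMI, which allows up to 5.83 CPM for each. Trac, of T cells, had 2 UMIs, and the macrophage genes Adgre1 and Mrc1 had 1 each. In all 76 members Ncr1 had 8 UMIs, Eomes 13, Klrb1c 26, Sparc 45, Csf3r 2 and Col1a1 1. Other genes were present in the 67. Of the B cell markers, Cd79b had 21 UMIs in 18 cells, Ighd 8 in 6 and Ms4a1 2 in 2. Apoe, of macrophages, had 19 UMIs in 14 cells. Of the conventional dendritic cell markers, Cd209a had 29 UMIs in 14 cells, 8 of them in the combination, Sirpa 102 in 45, Clec10a 81 in 31, Clec9a 57 in 26 and Wdfy4 70 in 33. Klrd1 had 158 UMIs, and Cd4 and Cd8a, known on some plasmacytoid dendritic cells, were found in 29 and 15 cells. The neutrophil list of 10 genes summed to 6.77 to 87.6 CPM in the 67 members, the T cell list of 15 genes to 244 to 474, and the CD45-negative list of 10 genes, 4 of them at 0, to 168 to 437.

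The cells were next set against 3 classes of the same libraries, chosen by marker UMIs: Cd209a+ type 2 conventional dendritic cells (cDC2, 144 barcodes), type 1 conventional dendritic cells (cDC1, 63) and B cells (453). The counts of each class were added up within a library and the classes compared with the library as the pair, by edgeR's quasi-likelihood test and Benjamini-Hochberg adjustment at 0.05; genes of either class's rule were left out. Against cDC2, 721 of 4098 genes tested were higher and 715 lower with all barcodes (35% in all, 17.6% and 17.4%), and 691 and 785 of 3383 without the mixed ones (43.6%, 20.4% and 23.2%). Against cDC1 the counts were 413 higher and 436 lower of 3869 (21.9%, 10.7% and 11.3%), or 534 and 516 of 2753 without mixed barcodes (38.1%, 19.4% and 18.7%). Against B cells they were 817 and 821 of 4875 (33.6%, 16.8% and 16.8%), or 1024 and 978 of 4194 (47.7%, 24.4% and 23.3%). In all, 1181, 717 and 1473 genes were called in the same direction in both fits. The values below are from barcodes without mixed ones (67, 135, 56 and 435). The cut on the macrophage list was made in the members and B cells and not in cDC2 or cDC1. Barcodes of those 2 classes with macrophage transcripts were therefore kept, unlike among the members. Counts of a list's genes against a class are to be read beside the shares of all genes in that fit. These were 20.4% higher and 23.2% lower against cDC2, 19.4% and 18.7% against cDC1, and 24.4% and 23.3% against B cells. A level is in CPM, as mean ± SD over the 4 libraries (n = 4, treated and untreated together), and a log2 difference is given ± its standard error (SE).

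**Figure D2:**
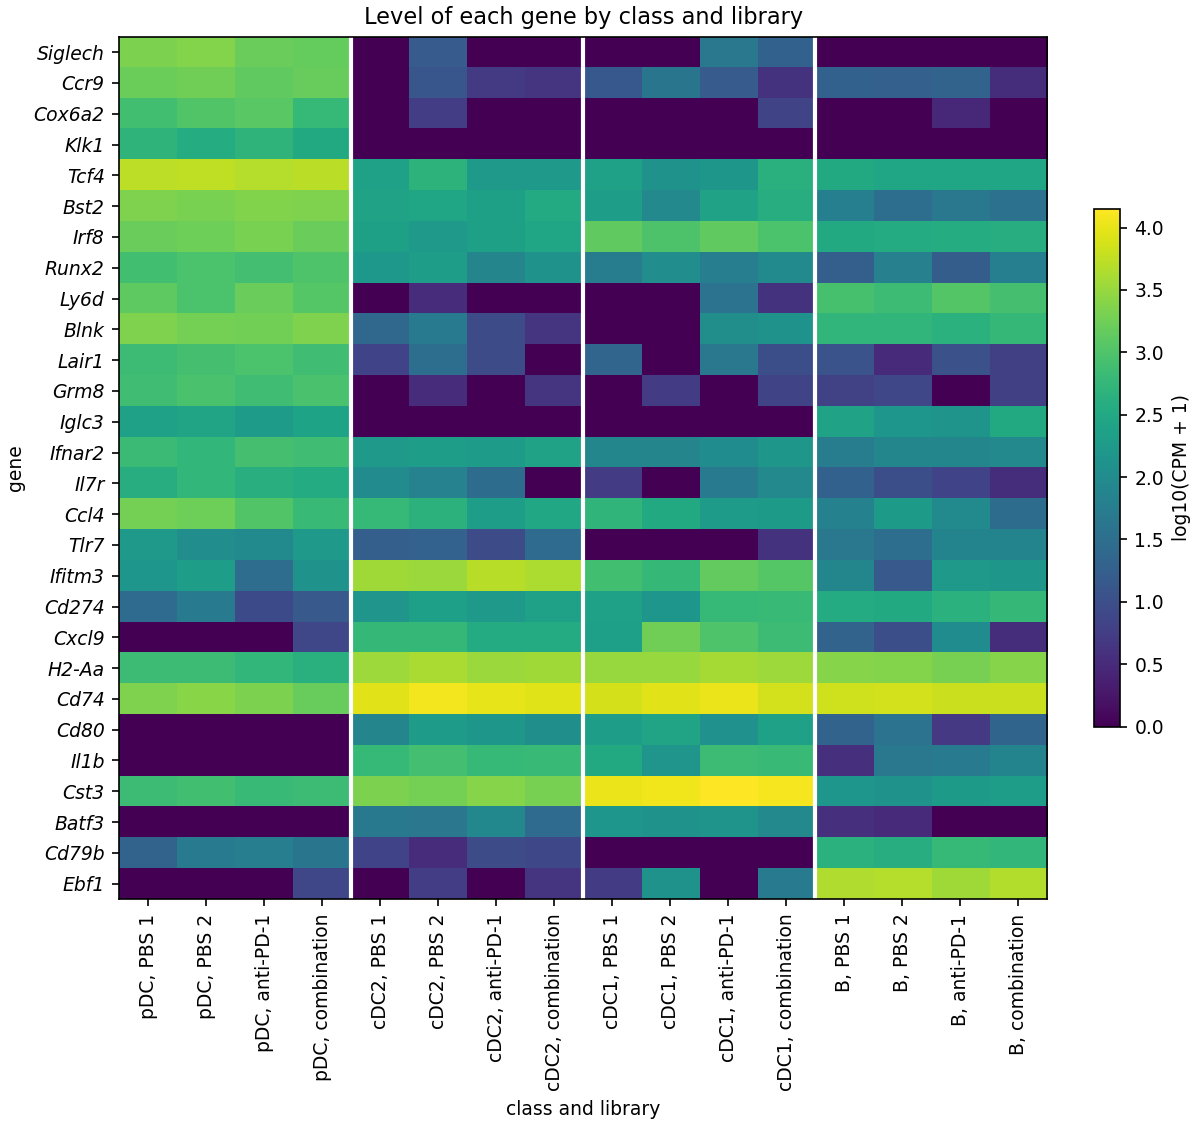
Level of 28 genes (rows) in each class and library (columns), as log10 of CPM plus 1; the 67 members without mixed barcodes are shown beside all barcodes of cDC2, cDC1 and B cells. Siglech to Klk1 are genes of the rule, Tcf4 to Grm8 are high in the members of every library, and Cd80 and Il1b have no UMI in them.

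The regulators and surface proteins of the lineage were mostly higher. Of the 38 identity genes outside the rule that the files hold, 31 of 34 tested were higher than in cDC2, 27 of 30 than in cDC1 and 33 of 36 than in B cells, and none was lower except Mzb1 and Pou2af1 against B cells. The medians were 3.79, 3.51 and 4.66 (log2), beside medians over all tested genes of -0.01, -0.01 and -0.04. The list was drawn from known markers of these cells, so it describes the population and is not independent evidence of its identity. Tcf4 stood at 5314 ± 329 CPM in the members, 279 ± 151 in cDC2, 282 ± 171 in cDC1 and 291 ± 23 in B cells. Its log2 differences were 4.2 ± 0.18, 4.19 ± 0.26 and 4.09 ± 0.10 (edgeR adjusted p = 9.04e-10, 6.4e-08 and 1.84e-20). In every library the members lay above all 3 classes.

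Bst2, which encodes the tetherin that the antibody PDCA-1 recognises, stood at 2207 ± 109 in the members and at 282 ± 50.7 in cDC2, 5.79 ± 0.17 (log2) above B cells. Runx2, needed for the exit of plasmacytoid dendritic cells from bone marrow, stood at 881 ± 121 against 135 ± 49.8 in cDC2. Irf8 was shared with cDC1: 1735 ± 222 against 1258 ± 109, a log2 difference of 0.36 ± 0.15 with an edgeR adjusted p of 0.0702, whereas cDC2 had 177 ± 41.2 (3.18 ± 0.17, adjusted p = 1.18e-11). Blnk, an adaptor of B cell receptor signalling, reached 2050 ± 215, above the 564 ± 62.9 of B cells. Lair1, an inhibitory collagen receptor, stood at 802 ± 98.9, and Cd300c at 386 ± 48.6, with no UMI in B cells, so at least 229.0-fold higher there. Grm8, a glutamate receptor gene, stood at 834 ± 89.2 beside 1.64 to 4.82 in the other classes, and Cacna1e, a calcium channel gene, at 854 ± 389 beside 2.89 ± 3.75 in cDC2 and 334 ± 53.9 in B cells.

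Several genes of endosomal nucleic acid sensing were higher. Of 28 genes of this list in the files, 18 were tested against cDC2, with 6 higher and 4 lower, beside 20.4% and 23.2% of all genes, so the count of lower ones is near the background. Tlr7 stood at 139 ± 42.6 against 19.0 ± 7.69 in cDC2, 1.06 ± 2.12 in cDC1 and 59.8 ± 25.5 in B cells (log2 2.71 ± 0.36, 5.93 ± 0.68 and 1.15 ± 0.30). Its partners in the endosome were also higher in all 3 comparisons: Unc93b1, the chaperone of these receptors, at 322 ± 60.1, Slc15a4, a lysosomal transporter, at 109 ± 28.3, the exonuclease Pld4 at 497 ± 130, and the protease Ctsl at 790 ± 158 against 39.5 ± 14.7 in cDC2. Tyrobp stood at 3319 ± 388 against 1990 ± 314. The cytosolic RNA sensors were lower than in cDC2. Ddx58, which encodes RIG-I, stood at 1.85 ± 3.70 against 69.2 ± 5.57, and Ifih1, which encodes MDA5, at 19.9 ± 20.1 against 166 ± 67.1. Ddx58 was also called lower than in B cells, and neither gene was called against cDC1. Irf5 was lower than in cDC2 and cDC1, at 48.2 ± 27.8. Irf7 was at 137 ± 43.2 against 125 ± 18.3 in cDC2 and 106 ± 17.8 in cDC1, log2 differences of 0.00 ± 0.27 and 0.22 ± 0.30 (adjusted p = 0.99 and 0.587).

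Interferon transcripts themselves were all but undetected. Over 20 type I and type III interferon genes the 76 members held 2 UMIs, 1 of Ifnl2 in PBS 2 and 1 of Ifnk in the combination. In PBS 1 and anti-PD-1, with no UMI, a count of 0 allows up to 12.5 and 16.9 CPM and up to 16.7% and 11.5% of cells with a UMI.

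Interferon-response genes were mostly lower than in cDC2. Of 29 type I interferon-stimulated genes tested, 22 were lower and 2, Bst2 and Ly6e, higher, with a median of -1.36 beside -0.01 over all genes. Isg15, a ubiquitin-like modifier, stood at 24.4 ± 25.4 against 271 ± 34.9. Ifitm3, which blocks virus entry and was not in the list, stood at 128 ± 72.8 against 4256 ± 695. Against cDC1, 7 of 16 were lower and 2 higher, beside 18.7% and 19.4% of all genes. Against B cells 6 of 17 were lower and 5 higher, beside 23.3% and 24.4%. The receptors for type I interferon were instead higher in all 3 comparisons, Ifnar1 at 267 ± 71.8 against 78.0 ± 17.3 in cDC2 and Ifnar2 at 698 ± 121 against 219 ± 31.9 (log2 1.63 ± 0.27 and 1.56 ± 0.18). Of 17 interferon-gamma response genes tested against cDC2, 14 were lower and Ly6a alone was higher, at 870 ± 282 against 308 ± 68.6.

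Genes of MHC class II, which presents antigen to CD4 T cells, were mostly lower than in the compared classes. Of 12 MHC class II pathway genes tested, 10 were lower than in cDC2 and 9 lower than in cDC1, and 9 of 15 were lower than in B cells; Ctsl was the higher one against both dendritic classes. Cd74, the invariant chain, stood at 2105 ± 422 in the members, 10295 ± 1167 in cDC2, 10127 ± 2034 in cDC1 and 7357 ± 311 in B cells. H2-Aa stood at 593 ± 126 against 3723 ± 408 in cDC2 (log2 -2.77 ± 0.12, adjusted p = 2.94e-13), and Ciita, the master regulator of the pathway, at 23.7 ± 21.1 against 190 ± 35.6. The summed list ran from 4765 to 6855 CPM in the members over the 4 libraries, above the 3213 to 3580 of all other barcodes and below the 21960 to 28509 of cDC2. MHC class I genes were closer to cDC2, with 2 higher (H2-Q7 and H2-T23) and 1 lower (Tap1) of 15, beside 20.4% and 23.2% of all genes. Of 10 genes of costimulation, checkpoint ligands and cytotoxic effectors tested against cDC2, 5 were lower (Cd274, Cd80, Cd83, Cd86 and Havcr2) and Lag3 was higher. Cd86 stood at 59.0 ± 31.5 against 1426 ± 240 in cDC2, and Cd80 had no UMI in the members, so at least 23.5-fold lower than cDC2. Cd274, the gene of PD-L1, stood at 24.0 ± 18 in the members, 180 ± 49.3 in cDC2, 382 ± 258 in cDC1 and 452 ± 147 in B cells (log2 -3.10 ± 0.39, -4.13 ± 0.58 and -4.48 ± 0.34).

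**Figure D3:**
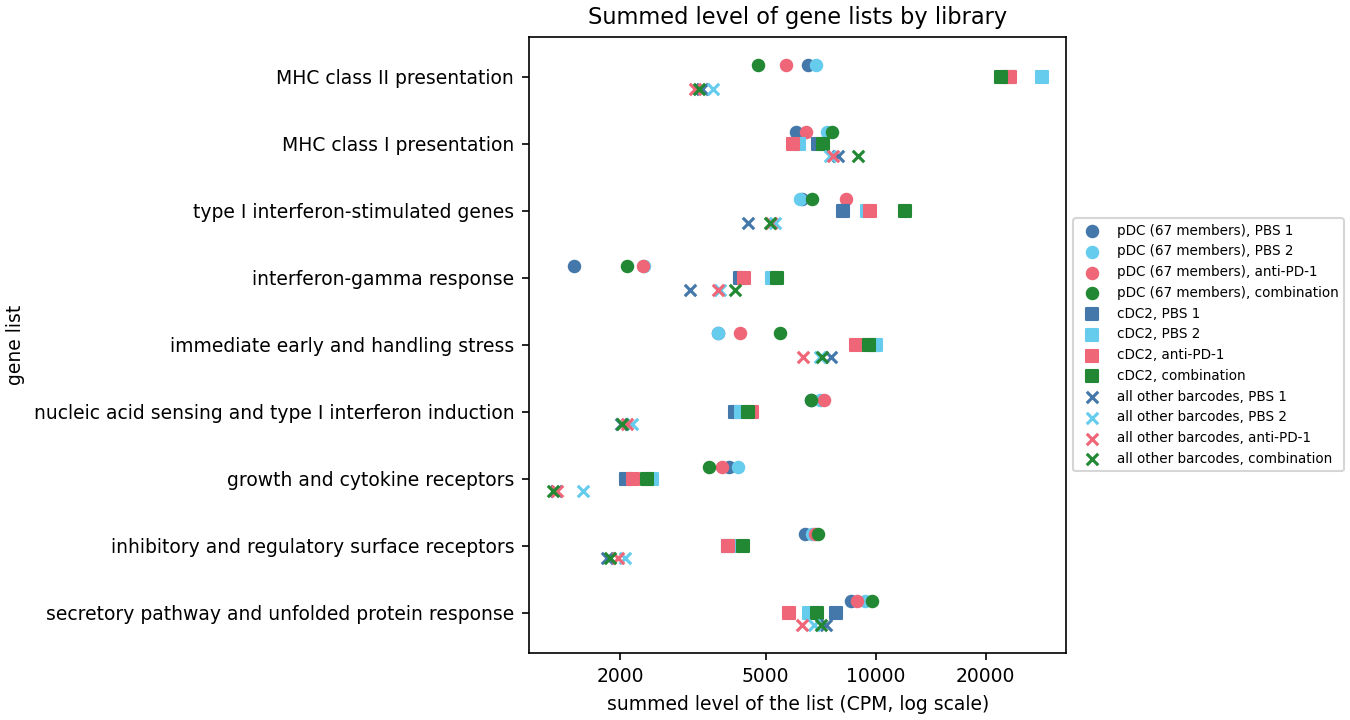
Summed level of 9 gene lists in CPM (log scale) in the 67 members (circles), in 144 cDC2 barcodes (squares) and in all other barcodes (crosses), coloured by library. In the MHC class II list all circles lie left of all squares, and in the list of nucleic acid sensing all circles lie right of them. A sum follows its most abundant genes, and the latter list includes Tyrobp. By gene, without mixed barcodes, 6 of the 18 tested in that list were higher and 4 lower than in cDC2.

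Of the secreted factors, the chemokine gene Ccl4 was higher than in all 3 classes, at 1306 ± 583 in the members, 419 ± 195 in cDC2, 322 ± 175 in cDC1 and 31.6 ± 21.2 in B cells (log2 1.52 ± 0.18, 1.88 ± 0.23 and 5.26 ± 0.30). It was unevenly held, with 0 to 75 UMIs per cell and detection in 47 of 67 members. Il1b, the inflammasome cytokine, had no UMI in the 67 members, at least 117.2-fold lower than in cDC2, and Cxcl9, a ligand of CXCR3, stood at 1.69 ± 3.37 against 493 ± 216. Of the antibodies' targets, Tnfsf15, which encodes TL1A, and its receptor gene Tnfrsf25 had no UMI in any of the 76 members, and Pdcd1, which encodes PD-1, had 2, both in the combination. Tnfrsf13b, which encodes the receptor TACI, stood at 146 ± 63.9 and was higher than in all 3 classes. Against B cells it was called only without mixed barcodes.

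Receptors for growth factors and cytokines were mixed against cDC2, with 7 higher and 6 lower of 16 tested, beside 20.4% and 23.2% of all genes. They leaned higher against cDC1 (6 of 11, 1 lower) and B cells (8 of 14, 1 lower). Of all genes 19.4% were higher and 18.7% lower against cDC1, and 24.4% and 23.3% against B cells. Il7r, a receptor of lymphoid progenitors, stood at 425 ± 95.1 against 27.8 ± 26.1 in cDC2 and Tgfbr1 at 610 ± 181 against 83.2 ± 27.1. Flt3, whose ligand drives dendritic cell development, was at 149 ± 41.9 against 93.1 ± 23.6 in cDC2 and 163 ± 68.7 in cDC1 (adjusted p = 0.103 and 0.683). Ccr2, a monocyte homing receptor, was lower than in cDC2 at 71.5 ± 54.4 against 472 ± 106. Of 18 inhibitory and regulatory surface receptors tested against cDC2, 10 were higher and 6 lower; against cDC1, 10 of 13 were higher and none lower.

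Of the 14 B cell markers, 3 were tested against each conventional dendritic class, and all 3 were higher in the members. The genes described here were picked as examples after their values were seen. Iglc3, a light chain constant region, was found in 37 of 67 members at 236 ± 35.5 and Igkc in 19 at 181 ± 71.5, and neither had a UMI in cDC2 or cDC1. Iglc3 was thus at least 87.9-fold and Igkc at least 64.4-fold higher than in cDC2. In B cells Igkc was at 4456 ± 414, whereas Iglc3 was at 232 ± 96.1 (log2 -0.07 ± 0.21, adjusted p = 0.824). Ighm stood at 750 ± 52.4 against 77.0 ± 22.2 in cDC2 and 1724 ± 105 in B cells. Dntt, the enzyme that adds bases at V(D)J joins, was found in 23 members and in none of the cDC2, cDC1 or B cells, and was at least 35.1-fold higher than in cDC2. Ly6d was high in both members and B cells, at 1243 ± 272 and 936 ± 205, against 0.657 ± 1.31 in cDC2. The B lineage regulators Ebf1 and Pax5 were nearly absent, at 1.69 ± 3.37 and 1.69 ± 3.38 against 4850 ± 509 and 703 ± 34.6 in B cells. Iglc3 was thus detected in 55.2% of members and in 47.9% of all B cell barcodes, at median depths of 6379.5 to 9477.5 and 2970 to 4921.5 UMIs.

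Secretory genes were compared next. Of 34 genes of protein secretion and the unfolded protein response tested against cDC2, 10 were higher and 1 lower, beside 20.4% and 23.2% of all genes. Xbp1 was among the higher ones, at 249 ± 32.5 against 104 ± 26.6 (log2 1.15 ± 0.25). Against B cells 25 of 35 were higher and 2 lower, beside 24.4% and 23.3%. Against cDC1 4 were higher and 7 lower of 34, the latter near the 18.7% of all genes that were lower there. Of the 21 immediate early and handling-stress genes tested against cDC2, 16 were lower and none higher, with a median of -1.51. Fos stood at 239 ± 123 against 1055 ± 200 in cDC2 and 836 ± 331 in cDC1. The summed list was 3710 to 5466 CPM in the members and 6329 to 7551 in all other barcodes. Cycling was rare, with Mki67 in 5 of 67 members and the summed cell cycle list at 385 to 623 CPM against 2364 to 2900 in all other barcodes.

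Responses to treatment were tested between libraries by the same edgeR method. The PBS pair alone gives the spread (1 residual degree of freedom), taken to hold for the single anti-PD-1 and combination libraries too. With all 76 members and with the 67, the weight of the spread pooled over genes (prior degrees of freedom) was infinite at the median gene. For such genes the p-values rest on the pooled spread and do not measure a gene's own spread between the PBS libraries. With all 76 members, 127 of 5029 genes (2.53%) passed between anti-PD-1 and PBS, 32 higher (0.636%) and 95 lower (1.89%). Between the combination and PBS 173 (3.44%) passed, 38 higher (0.756%) and 135 lower (2.68%). In PBS 1 and PBS 2 the deepest barcode, which is mixed, alone held 60.1% and 76.5% of the UMIs of the 95 genes lower under anti-PD-1, and over 90% of the UMIs of 58 and 67 of them. Lists of other cells moved with the groups: the natural killer list of 10 genes summed to 457, 170, 1384 and 1488 CPM with all members, and to 318, 324, 252 and 539 in the 67, and the CD45-negative list to 761, 3142, 416 and 213, and to 338, 396, 437 and 168. In the 67 members, 4 of 3779 genes (0.106%) passed between anti-PD-1 and PBS, 2 in each direction (0.0529%). Between the combination and PBS 11 (0.291%) passed, 4 higher (0.106%) and 7 lower (0.185%). Of the calls made with all members, 1 and 8 were also made in the 67. Only 49 of the 127 and 74 of the 173 genes were tested there.

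The call shared by both fits under anti-PD-1 was Ifi27l2a (GRCm38, chr12:103442167-103443680, - strand), an interferon-stimulated gene. In the 67 members it stood at 541 and 564 CPM in PBS 1 and PBS 2, 1333 in anti-PD-1 and 445 in the combination. The anti-PD-1 library was the high one. The log2 difference from PBS was 1.34 ± 0.27 (edgeR adjusted p = 0.00203), and the combination was lower than anti-PD-1 by 1.68 ± 0.33 (adjusted p = 0.000279), a comparison of 2 libraries. With all 76 members the adjusted p was 1.72e-06, but the call was lost with no C1q UMI allowed, without the highest Scrublet scores and by DESeq2 (0.396, 0.417 and 0.287), and so was that between the combination and anti-PD-1 (1.0, 0.781 and 1.0). The UMIs came from many cells, 17 of 23 in anti-PD-1 against 11 of 16, 5 of 9 and 13 of 19, and the median cell stood at 1228 CPM against 256, 337 and 234. Without the highest cell of each library the log2 ratio of summed levels, 1.27 with it, was 1.68. In all other barcodes the gene stood at 642, 739, 887 and 602, so it was also highest in the anti-PD-1 library there. No other gene passed among the 17 interferon-stimulated genes tested in the 67. The median over the list was 0.54 under anti-PD-1 and 0.37 under the combination, beside -0.03 and -0.03 over all genes.

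Of the other calls under anti-PD-1, Gm42418, a gene model that overlaps ribosomal RNA sequence, rose and stood at 6882, 9821, 15149 and 9927, and at 10112, 11847, 15964 and 9959 in all other barcodes. It was high in the anti-PD-1 library in both. Cadm1, an adhesion gene of cDC1, and Ms4a6c fell, with 45, 16, 5 and 33 and with 10, 21, 1 and 11 UMIs (log2 -2.70 ± 0.63 and -4.04 ± 0.96, edgeR adjusted p = 0.0229 and 0.0236). Neither was past the threshold with all 76 members (adjusted p = 0.374 and 0.801). In anti-PD-1 Cadm1 was found in 5 of 23 members and Ms4a6c in 1. Both were also unevenly held in PBS 1 and PBS 2. Cadm1 was found there in 10 of 16 and 3 of 9 members, with 12 of 45 and 10 of 16 UMIs in 1 cell. Ms4a6c was found in 5 of 16 and 4 of 9, with 5 of 10 and 11 of 21 UMIs in 1 cell.

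**Figure D4:**
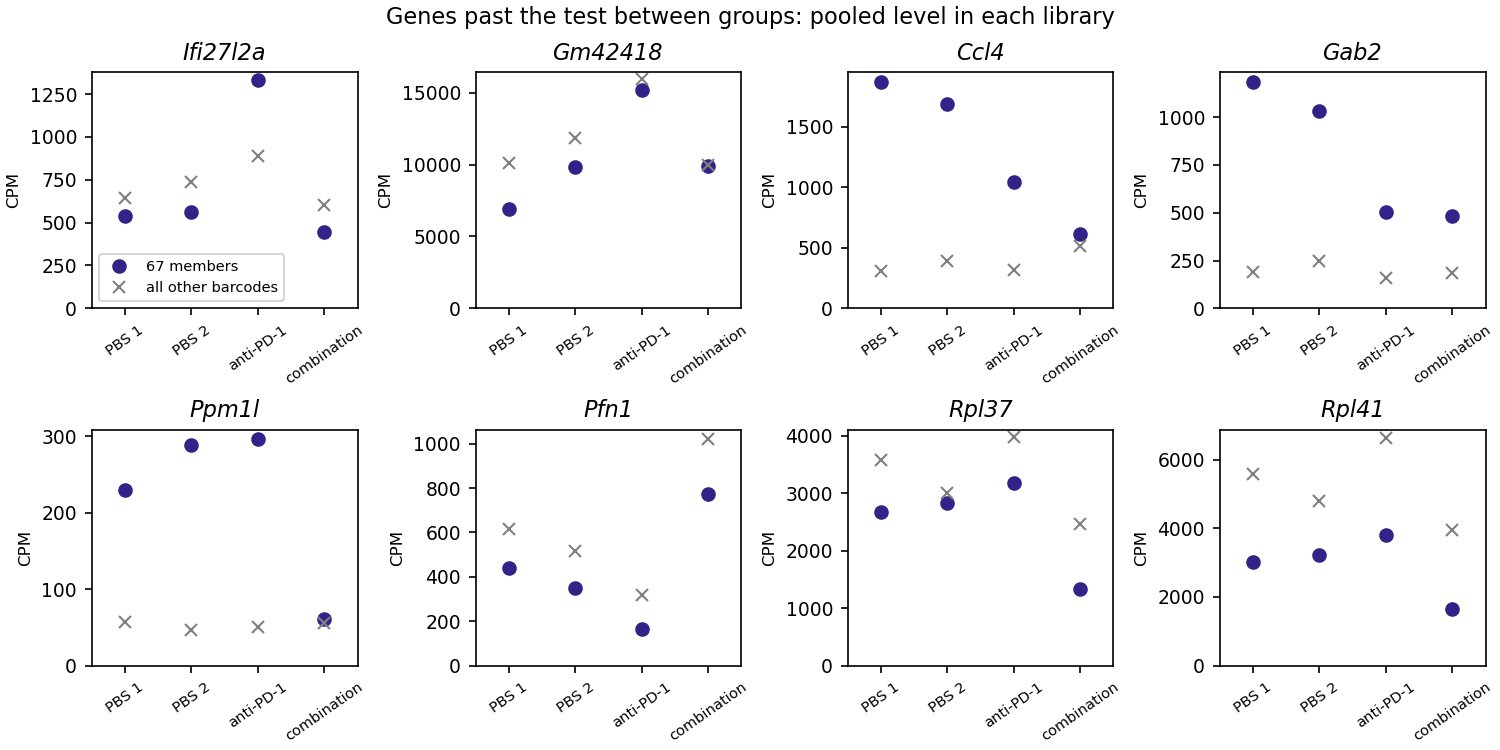
Level of 8 genes past the test between groups, in CPM summed over the 67 members of each library (filled circles) and over all other barcodes (crosses), with the vertical axis starting at 0; each library is 1 value. Ccl4 and Gab2 are lower in both treated libraries than in both PBS libraries in the members, and Rpl37, Rpl41 and Pfn1 have the combination at the extreme in members and other barcodes alike.

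Under the combination Ccl4 (GRCm38, chr11:83662584-83664683, + strand) fell. It stood at 1874 and 1693 in PBS 1 and PBS 2, 1044 in anti-PD-1 and 613 in the combination. The log2 difference from PBS was -1.57 ± 0.25 in the combination (edgeR adjusted p = 6.27e-07; -1.17 with all 76 members, adjusted p = 0.0041) and -0.71 ± 0.24 in anti-PD-1 (adjusted p = 0.482). From the fit of all members, the combination's call was lost with no C1q UMI allowed, without the highest Scrublet scores, by DESeq2 and with no low-count filter (adjusted p = 0.999, 0.753, 0.677 and 0.0675). It was unevenly held, with UMIs in 12 of 16, 8 of 9, 17 of 23 and 10 of 19 cells: 75 of 141 UMIs of PBS 2 were in 1 cell, and the median cell stood at 1349, 201, 225 and 108. Without the highest cell of each library the levels were 1632, 893, 858 and 489, a log2 ratio of -1.37. In all other barcodes the gene stood at 309, 388, 318 and 519, highest in the combination.

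The other 10 calls were Gab2, Immp2l, Ppm1l, Rpl37, Rpl41 and Rps29, all lower, and Klf2, Cyp7b1, Stxbp6 and Fchsd2, all higher. Gab2, an adaptor of growth factor signalling, stood at 1184, 1033, 504 and 485 in the 67 (log2 -1.23 ± 0.29, adjusted p = 0.0134) and at 192, 246, 157 and 182 in all other barcodes. It was low in both treated libraries, but anti-PD-1 against PBS had an adjusted p of 0.11, and with all 76 members the combination had 0.401. Ppm1l, a phosphatase, stood at 230, 288, 296 and 60.7. Rpl37 stood at 2673, 2821, 3178 and 1334, and at 3576, 2996, 3973 and 2463 in all other barcodes, so this ribosomal gene was lowest in the combination in both. Pfn1, which encodes an actin-binding protein, passed between the combination and anti-PD-1 at 440, 348, 163 and 775 in the 67 and 617, 517, 317 and 1021 in all other barcodes, the same order.

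Klf2 and Cyp7b1 each rested on 1 cell. Klf2, a quiescence factor, had 21, 16, 15 and 75 UMIs, 52 of the 75 in 1 combination cell, and its log2 ratio fell from 1.59 to 0.28 without the highest cells. Cyp7b1, an oxysterol hydroxylase, had 0, 4, 2 and 48 UMIs, 45 of the 48 in 1 cell. That cell held 2 UMIs of Ccr9 and 0 of Cox6a2 and Klk1. Ifitm1, called between the combination and anti-PD-1, had 20 of its 21 combination UMIs in 1 cell. Stxbp6 had 37 combination UMIs in 8 of 19 cells, with at most 11 in 1 cell, against 6, 3 and 10 in the other libraries.

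**Figure D5:**
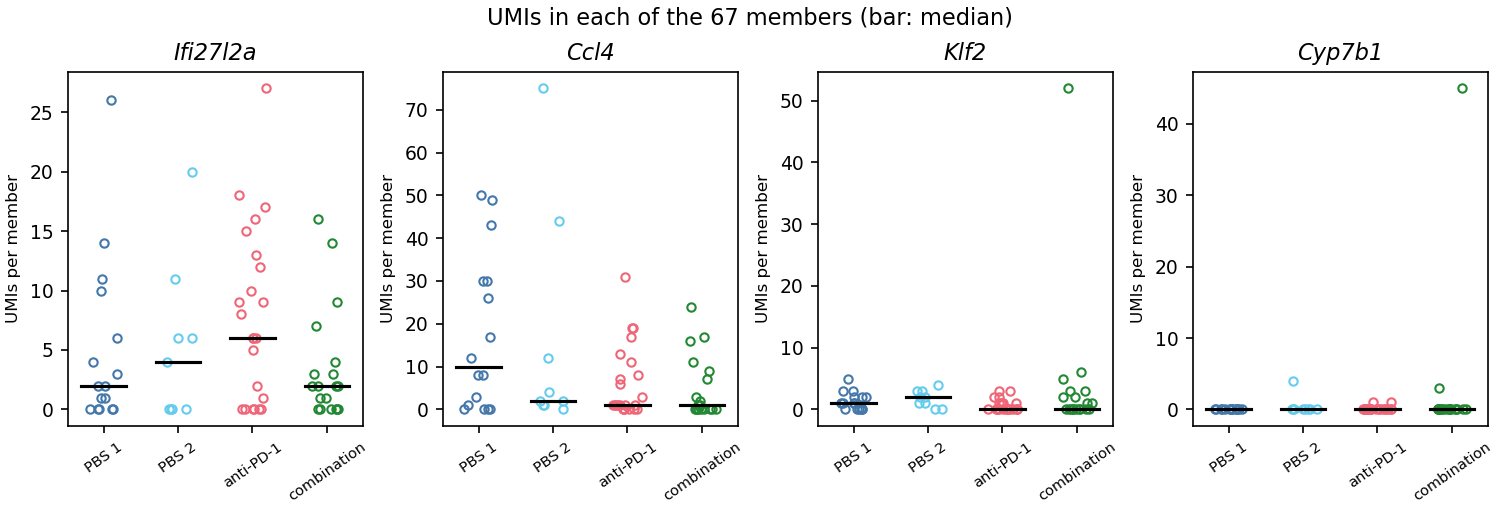
UMIs of 4 genes in each of the 67 members, by library (points, spread sideways at random), with a black bar at the median of each library. Ifi27l2a is raised in many anti-PD-1 cells, Ccl4 is uneven with 1 PBS 2 cell at 75 UMIs, and Klf2 and Cyp7b1 are high in 1 combination cell each.

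Of the genes that mark the cells, Tcf4 and Bst2 had no call in any treatment comparison. Tcf4 stood at 5373, 5715, 4919 and 5250 CPM in the 67 members and Bst2 at 2233, 2053, 2311 and 2231, with adjusted p of 0.961 or more in each comparison of a treated library with PBS. Siglech stood at 2104, 2413, 1578 and 1469. Its UMIs selected the members, so these levels describe the selection and are not a result on treatment. With all 76 members, 5 identity genes were called higher under anti-PD-1 (Cd8b1, Irf8, Ly6c2, Ly6d and Zeb2, of 35 tested), and none was in the 67. Between the combination and anti-PD-1, 18 genes passed in the 67 (0.476%), 5 higher (0.132%) and 13 lower (0.344%). With all members 11 passed (0.219%), 3 higher (0.0597%) and 8 lower (0.159%), and 9 were called in both. Pfn1 and Mob3b were higher (Mob3b at 81.5 against 526) and ribosomal protein genes such as Rpl31 lower, and the comparison is of 2 libraries.

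Whether a treatment difference was larger or smaller than in cDC2 was tested by an interaction term in edgeR. With all barcodes 23 of 4098 genes (0.561%) differed for anti-PD-1, 11 higher (0.268%) and 12 lower (0.293%). For the combination 36 (0.878%) differed, 11 higher (0.268%) and 25 lower (0.61%). Without mixed barcodes 1 of 3383 genes, Ifitm3, differed for anti-PD-1 (0.0296%), in the lower direction. For the combination 4 (0.118%) differed, Plcl1, Ubash3b and Emp1 higher (0.0887%) and Atxn7l1 lower (0.0296%). Neither Ifi27l2a nor Ccl4 was among these 5 genes.

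Some named genes share their 3' ends with close relatives. When the final 500 bases of each gene's longest transcript were cut into overlapping 31-mers, Klk1 shared 55.3% of them with other genes (most with Klk1b5), Ly6c2 47.7% (Ly6c1), Iglc3 25.1% (Iglc2), Rpl37 57.9% and Rpl41 51.3%, Ifitm1 26.6% and Ifitm3 28.3%, so their counts are uncertain as to the gene. Mzb1 shared 99.8% with SPATA24.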

How the data were processed

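The authors deposited raw UMI counts per gene and barcode in filtered matrices. Per the file headers the matrices come from Cell Ranger 7.1.0; Cell Ranger 3.0.2 and the build mm10 are listed in the submitters' processing notes, and no source used here says if intronic reads count. Barcodes were assigned by the rule in the report (Python 3.11.15). Scrublet (scanpy 1.11.5), at its automatic threshold, marked at most 0.0192% of barcodes and no member, so it did not work as a caller and doublets were not removed; removing the highest scores at 0.8% per 1000 barcodes was an alternative.

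The compared classes passed the same quality, CD3 and C1q filters. cDC2 held at least 2 UMIs of Cd209a and none of Xcr1 or Clec9a, cDC1 at least 2 of Xcr1 and Clec9a and none of Cd209a, and B cells at least 3 of Cd79a and Cd79b with at least 1 of Ms4a1, Ighd or a further marker that is not reported here. Summed counts were tested with edgeR 4.0.16 in R 4.3.3 (robust quasi-likelihood, TMM, filterByExpr minimum 10, Benjamini-Hochberg over all genes tested, threshold 0.05), and with DESeq2 1.42.0 as an alternative. Levels in CPM use plain UMI totals. Folds against 0 use a floor of 3 UMIs over the 4 libraries of a class. On simulated data of the treatment design edgeR recovered 89 of 100 genes changed 4-fold and 19 of 100 changed 2-fold, with 5 false calls among 3689 genes tested. DESeq2 recovered 22 and 2 of the same, with 0 false calls among 11323 genes tested. In the real data edgeR's fitted spread between libraries (biological coefficient of variation) was 33.3% with all members and 17.3% without mixed barcodes. The simulated spread was lower than in either fit, and only genes above a minimum mean count were changed. The simulation was not matched to each of these fits, so its counts do not measure the recovery in them.

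Genes could be named if they were in the assignment rule, had up to the 10 smallest p per direction among those past a treatment test, belonged to 1 of 25 lists and passed a test or were among the 4 highest there, or had 1 of the 10 largest folds per direction against a class. Genes called only without mixed barcodes, and examples within lists, were chosen after their values were seen. The members and lists were chosen with earlier results of these data known. Alternatives were RLE size factors, no low-count filter, other Siglech and C1q thresholds, thinning to 3000 UMIs, no library block, and leaving out libraries, mixed barcodes or shared barcodes. Promoters are from RefSeq (GRCm38.p6), where Tcf4, Ly6d, Ccl4 and Ifi27l2a had no entry used here.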

Additional observations from a re-analysis of the deposited data

Results flagged for a closer look

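A treatment difference in plasmacytoid dendritic cells was set against that of cDC2 by an interaction term in edgeR, which tests the difference itself with 1 residual degree of freedom. With all barcodes 23 of 4098 genes (0.561%) differed for anti-PD-1 and 36 (0.878%) for the combination. Without mixed barcodes 1 of 3383 genes (0.0296%) and 4 (0.118%) did.

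The 1 gene under anti-PD-1 was Ifitm3, with a log2 difference of -2.924 (edgeR adjusted p = 0.00623). It had 22, 17, 4 and 19 UMIs in the 67 members of PBS 1, PBS 2, anti-PD-1 and the combination, of which 18 in PBS 1 and 12 in PBS 2 were in 1 cell each. Without the highest cell of each library the log2 ratio of anti-PD-1 to PBS within the members went from -2.535 to -1.572. The gene stood between 3362 and 5097 CPM in all cDC2 barcodes.

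Under the combination the log2 differences were 7.623 for Plcl1, 5.398 for Ubash3b, 4.598 for Emp1 and -2.75 for Atxn7l1 (edgeR adjusted p = 0.00973, 0.00973, 0.0447 and 0.044). Plcl1 had 0, 0, 4 and 12 UMIs in the members, Ubash3b 0, 1, 2 and 12, Emp1 1, 0, 1 and 14, and Atxn7l1 32, 18, 14 and 14. The positive differences rest on counts at or near 0 in the PBS libraries, where the fitted value depends on the prior count and is no measure of size. Plcl1 and Ubash3b were also called with all barcodes.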

How the results depend on the processing

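Calls between treatment groups depended on the choice of barcodes and tool. For anti-PD-1 against PBS (127 genes) the count was 1 with no C1q UMI allowed, 0 without the highest Scrublet scores (192 at an unadjusted p under 0.05), 1 by DESeq2, 4 without mixed barcodes and 12 without shared barcodes. For the combination against PBS (173) it was 1, 1, 8, 11 and 21, and for the combination against anti-PD-1 (11) 1, 0, 0, 18 and 21 in the same order (120 and 24 genes at an unadjusted p under 0.05 where the count was 0), and 7 with no low-count filter. The latter raised the count against cDC2 from 1436 to 2178 and against cDC1 from 849 to 1335. The differences from cDC2 (23 and 36) fell to 2 and 4 with RLE size factors, 8 and 5 at Siglech of at least 5, and 1 and 4 without mixed barcodes. With all quality barcodes as denominator the shares were 0.2892, 0.1807, 0.2501 and 0.2071%. Among single genes, Prkch under anti-PD-1 turned to -0.538 without the highest Scrublet scores, Ms4a6c ranged from -1.364 to 0.289 with a PBS library left out, Ifitm3's difference turned to 0.02 with no filter and Emp1's to -0.107 at Siglech of at least 5. The cause was not tested.

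The library block pairs classes from the same library; with no replicate block, 1421, 853 and 1692 genes differed from cDC2, cDC1 and B cells, against 1436, 849 and 1638. Leaving out a library gave 1129 to 1289, 589 to 925 and 1236 to 1593. No paired analysis was possible because the treatment groups share fewer than 2 replicate numbers. With a PBS library left out no residual degree of freedom remains, so those treatment counts were not computed. Of the other tested values of single genes, 1046 kept direction and side of the threshold, 195 lost the call and 29 gained it. Of those with a PBS library left out, which have no test, 76 stayed within 1 SE and 23 moved further. The 67 members held 83292 to 148385 UMIs per library; with the sums of all members thinned to the smallest library the treatment counts were 139, 165 and 9.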
